A study of Mus musculus with 8 samples.

Results

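Wnt ligands, their receptors and their secreted antagonists were followed in the ileum of mouse embryos that lack LGR5. The genes were taken by symbol from the annotation of the array: the Wnt, Frizzled (Fzd), Sfrp and Dkk families, together with Dkkl1, Frzb, Wif1, Notum, Lrp5, Lrp6, Ror1, Ror2, Ryk, Porcn and Wls. They number 47 of the 15123 named genes. By role they are 19 ligands, 9 Frizzled receptors, 5 co-receptors and other receptors, 12 secreted antagonists and 2 genes of ligand processing. They were measured by 65 probes, 1 probe for 30 genes and several for 17, and the probes of a gene were averaged. Fzd9, which the same rule would take, was not analysed here.

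The study compared ileum RNA of LGR5-null embryos (Ileum E18.5 LGR5-/-) with that of wild-type embryos (Ileum E18.5 LGR5 +/+). The age is E18.5 in the labels and E18.5-E19 in the design text. There were 4 pairs, each with 1 null and 1 wild-type embryo, from 3 heterozygous couples. The sources do not say which pairs share parents or how the null allele was made. Each pair was hybridised on 2 arrays with 70-base oligonucleotides, with the null RNA in Cy5 on the first array and in Cy3 on the second. No treatment was given, and every value below is a ratio of null over wild type, without a level for either embryo.

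Wnt proteins are secreted lipid-modified ligands. Porcn attaches the lipid, Wls carries the ligand to the cell surface, and Frizzled receptors bind it. Together with Lrp5 or Lrp6 this stabilises beta-catenin, whereas Ror1, Ror2 and Ryk serve branches that do not need beta-catenin. Sfrp proteins, Frzb and Wif1 bind Wnt ligands outside the cell, Dkk1, Dkk2 and Dkk4 block Lrp5 and Lrp6, and Notum removes the lipid. In the gut, Wnt signals from mesenchyme and, after birth, from Paneth cells sustain the crypt stem cells that LGR5 marks, and LGR5 itself strengthens the response to Wnt by binding R-spondins.

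Ratios are on the log2 scale, a base that the sources do not state and that was taken here. Their direction, null over wild type, rests on the null RNA being channel 1 of every array and on Lgr5, which lay below 0 on all 8 arrays, so it is likely rather than stated. Lgr5 stood at -1.61, -0.92, -1.92 and -1.93 in pairs 1 to 4, with a mean of -1.59 ± 0.47 (SD, n = 4) and limma adjusted p = 0.656. Arrays of the same pair correlated across probes at r = 0.309 to 0.779. Between different pairs the median r was 0.118 where the dyes ran the same way and -0.024 where they ran opposite ways. Pairs also differed in genes outside the Wnt family. Posterior Hox genes had a median of -0.30 in pair 1. Pancreas genes had medians of -0.045, -0.091, 2.37 and 0.58 in pairs 1 to 4, liver genes -0.086, -0.20, 1.80 and 0.55, and erythroid genes 0.37, -0.57, 1.53 and 0.36. Whether ileum markers were present could not be read from ratios.

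No Wnt ligand, receptor or antagonist passed the genotype test, and the ratios below 0 outnumbered those above it. The mean over 4 pairs lay below 0 for 34 genes (72.3%, against 50% of all genes) and above 0 for 13. The median mean ratio was -0.045, against 4.2e-05 over all genes. At limma adjusted p under 0.05 there were 0 of 47, and 0% of the 15123 genes. The adjusted p of the 47 ran from 0.656 to 0.974. At an unadjusted p under 0.05, which 6.32% of all genes passed in limma, 7 of the 47 (14.9%) were lower, against 3.68% of all genes, and 0 were higher, against 2.64%. The count of lower genes was 2 without pair 4, against 2.23% of all genes, and 3 with 1 probe per gene, against 3.59%. All 7 were below 0 in every pair: the antagonists Sfrp2, Dkk2 and Dkk3, the ligands Wnt5b, Wnt2b and Wnt9a, and the receptor Ror1. In all, 8 of the 47 (17.0%) were below 0 in all 4 pairs, with Fzd4 as the eighth, against 8.27% of all genes. Above 0 in all 4 pairs were 3 (6.38%), Wnt9b, Lrp5 and Dkk4, against 7.3%. With 4 pairs, exact sign flips reach no lower than p = 0.125, so no single gene can pass by that test.

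**Figure D1:**
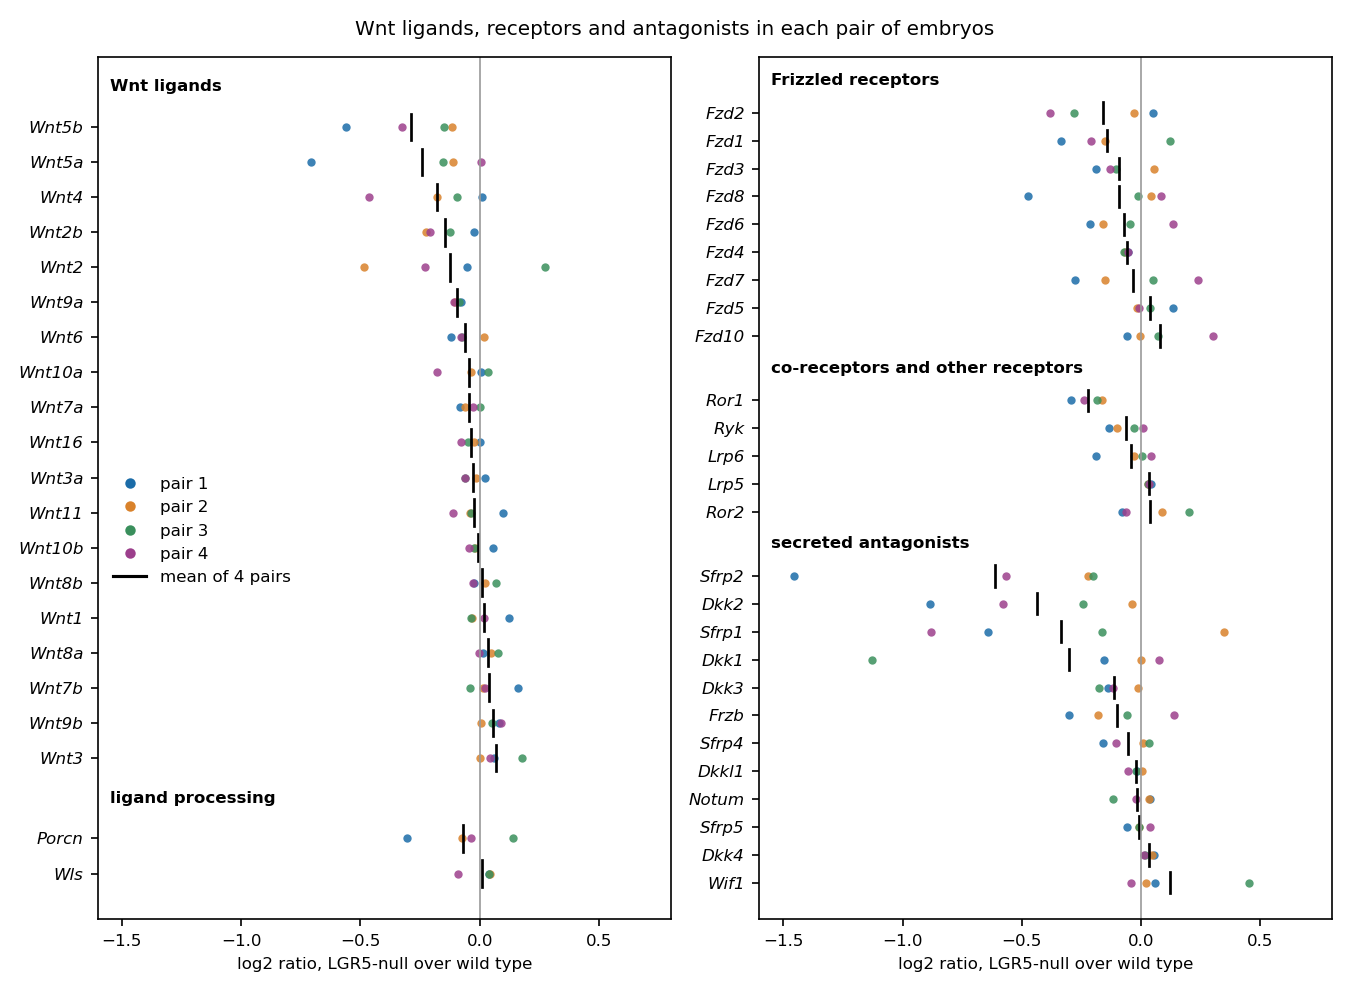
Log2 ratio of null over wild type (horizontal axis) for the 47 genes by role, with 1 point per pair of embryos and a bar at the mean of 4 pairs. Most ligands lie close to 0 in every pair, while Sfrp2, Dkk2, Sfrp1 and Dkk1 reach the lowest values, and Sfrp1 and Dkk1 do so in some pairs and not in others.

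Most of the differences were small, as were those of most genes on the array. For 32 of the 47 genes the mean lay within 0.1 of 0. For 33 the SD between pairs exceeded the size of the mean, a count not made over all genes. The median size of the mean was 0.064 for the 47 genes and 0.042 over all genes. Frzb, with a mean of -0.10, lay further from 0 than 78.7% of all genes. A mean of 0.2 or more in size was found for 7 genes (14.9%, against 6.96% of all genes). These were Sfrp2, Dkk2, Sfrp1, Dkk1, Wnt5b, Wnt5a and Ror1, and all 7 means were below 0. The median SD between pairs was 0.087 for the 47 genes and 0.098 over all genes. Of the 47, 27 stayed within 0.2 of 0 in every pair, against 59% of all genes.

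**Figure D2:**
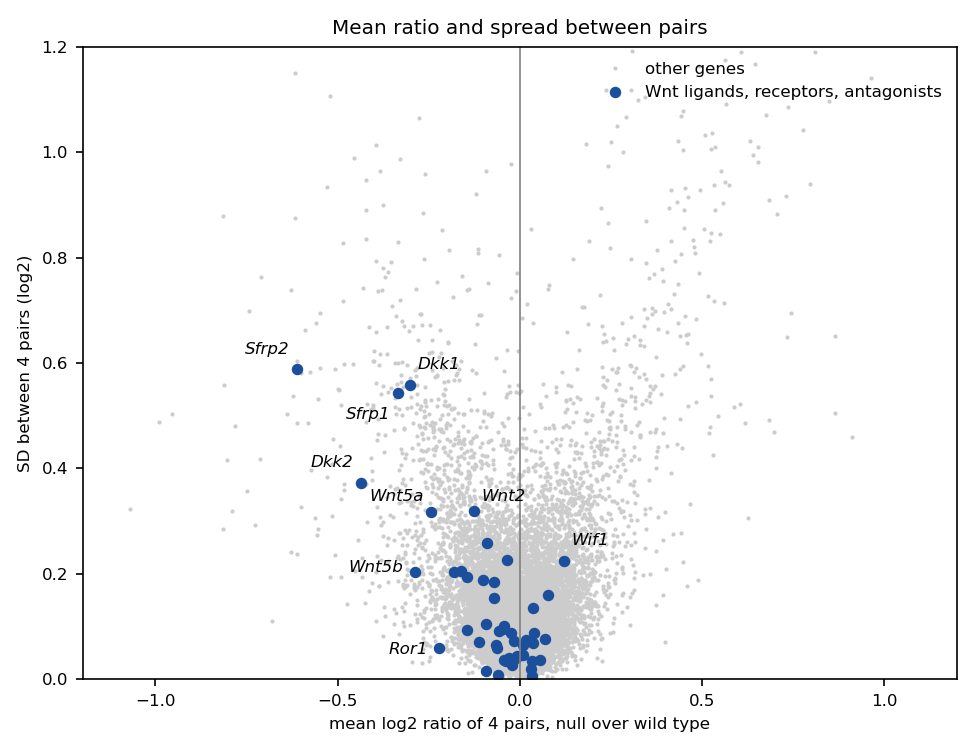
Mean log2 ratio of 4 pairs (horizontal axis) against the SD between the 4 pairs (vertical axis) for the 47 genes in blue and the other genes in grey, with 44 genes beyond the axis limits of 1.2 left out. Ror1 combines a mean of -0.22 with an SD of 0.058, whereas Sfrp2, Sfrp1 and Dkk1 have SDs of 0.54 to 0.59.

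The upstream sequence of Sfrp2, Dkk2, Ror1 and Wnt5b is shown because these were the 4 genes with the largest means among the 7 lower ones. Each line gives the 250 bases before the RefSeq start in mouse build GRCm38.p6, read along the gene's strand. Capitals mark the core of the TCF/LEF site, CTTTGA, and the GC box, GGGCGG, on either strand.
Sfrp2, chr3:83766071-83766320, plus strand: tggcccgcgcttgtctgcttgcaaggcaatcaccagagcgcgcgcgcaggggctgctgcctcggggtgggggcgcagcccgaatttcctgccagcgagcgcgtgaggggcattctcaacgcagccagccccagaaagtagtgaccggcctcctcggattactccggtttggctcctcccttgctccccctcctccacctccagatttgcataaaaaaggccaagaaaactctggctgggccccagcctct
Dkk2, chr3:132085042-132085291, plus strand: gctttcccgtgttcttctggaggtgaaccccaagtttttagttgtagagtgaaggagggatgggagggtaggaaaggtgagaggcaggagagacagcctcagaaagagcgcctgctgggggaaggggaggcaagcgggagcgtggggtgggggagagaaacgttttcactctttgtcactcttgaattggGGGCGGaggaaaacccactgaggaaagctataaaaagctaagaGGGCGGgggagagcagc
Ror1, chr4:100095541-100095790, plus strand: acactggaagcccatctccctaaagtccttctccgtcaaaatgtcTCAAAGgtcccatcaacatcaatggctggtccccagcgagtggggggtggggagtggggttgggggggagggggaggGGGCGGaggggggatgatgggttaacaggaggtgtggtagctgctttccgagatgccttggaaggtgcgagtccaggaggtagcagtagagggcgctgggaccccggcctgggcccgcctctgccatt
Wnt5b, chr6:119544348-119544597, minus strand: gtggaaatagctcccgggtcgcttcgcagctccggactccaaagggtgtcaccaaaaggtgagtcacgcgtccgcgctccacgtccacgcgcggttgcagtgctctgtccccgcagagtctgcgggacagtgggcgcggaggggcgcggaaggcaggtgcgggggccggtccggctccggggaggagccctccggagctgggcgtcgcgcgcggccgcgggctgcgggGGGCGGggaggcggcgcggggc
The Ror1 window held 1 TCF/LEF core, on the reverse strand, and 1 GC box. The Dkk2 window held 2 GC boxes, the Wnt5b window 1, and the Sfrp2 window neither motif. Wnt5b has 3 starts in the table, of which the outermost is shown, and the window of another held 1 TCF/LEF core. Over all 32851 windows of the table, 13.8% held CTTTGA and 32.7% held GGGCGG, on either strand. Of 34 windows for 31 of the 47 genes, 6 (17.6%) and 25 (73.5%) did. A match is a run of letters and not a measured site.

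Of the 12 secreted antagonists, 10 had a negative mean, and 3 of those were below 0 in every pair. Sfrp2, which binds Wnt ligands through a Frizzled-like domain and is made by fibroblasts, had the lowest mean of the 47 genes. It stood at -1.46, -0.22, -0.20 and -0.57 in pairs 1 to 4. Every pair was below 0, and pair 1 was the lowest by a wide margin. Its arrays read -1.47, -0.32, -0.30 and -0.65 with the null RNA in Cy5 and -1.44, -0.12, -0.10 and -0.48 with it in Cy3. The mean was -0.61 ± 0.59 (SD, n = 4), which is 0.655 times wild type, with a 95% interval from limma of -1.2 to -0.019 and adjusted p = 0.779. Without pair 1 the mean was -0.33, so the size of the mean rests largely on that pair.

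Dkk2, an inhibitor of Lrp5 and Lrp6, came next among the antagonists. It stood at -0.88, -0.038, -0.25 and -0.58 in pairs 1 to 4, near 0 in pair 2 and lower in the others. The arrays read -1.06, -0.12, -0.33 and -0.48 with the null RNA in Cy5 and -0.71, 0.039, -0.17 and -0.68 with it in Cy3, so the 2 arrays of pair 2 fell on either side of 0. Its mean was -0.44 ± 0.37 (SD, n = 4), which is 0.739 times wild type (95% interval -0.82 to -0.057; limma adjusted p = 0.748). Without pair 1 the mean was -0.29. Dkk3, a relative that does not block Lrp5 and Lrp6 in the same way, stood at -0.14, -0.014, -0.18 and -0.12 in pairs 1 to 4, with a mean of -0.11 ± 0.070 (SD, n = 4) and limma adjusted p = 0.750. Its probes gave means of -0.057 and -0.17.

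The antagonists Sfrp1 and Dkk1 had large means with wide spread between pairs. Sfrp1, a close relative of Sfrp2, stood at -0.64, 0.35, -0.17 and -0.88 in pairs 1 to 4, clearly above 0 in pair 2 and lowest in pair 4. The arrays of each pair agreed on the sign, reading -0.62, 0.39, -0.096 and -0.85 in Cy5 and -0.67, 0.31, -0.24 and -0.91 in Cy3. Its mean was -0.34 ± 0.54 (SD, n = 4) with limma adjusted p = 0.820. Dkk1, the founding inhibitor of Lrp6, stood at -0.15, 0.0005, -1.13 and 0.074 in pairs 1 to 4. The low value of pair 3 came mainly from its Cy3 array at -1.89, against -0.36 on the Cy5 array, and without pair 3 the mean of Dkk1 was -0.027 in place of -0.30.

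The other antagonists differed little. Frzb, a secreted Wnt binder of cartilage and mesenchyme, had a mean of -0.10 ± 0.19 (SD, n = 4). It was the only one of the 47 with a dye term past the threshold (limma adjusted p = 0.0408, against 1.53% of all genes). It read 0.0070, 0.0010, 0.092 and 0.42 with the null RNA in Cy5 and -0.61, -0.36, -0.21 and -0.14 in Cy3. Wif1, a binder of Wnt ligands, stood at 0.058, 0.021, 0.45 and -0.041 in pairs 1 to 4, and its highest value rests on 1 array at 0.90, the other reading 0.0080. Sfrp4 had a mean of -0.056 ± 0.092, Sfrp5 of -0.011 ± 0.039, Notum of -0.017 ± 0.072, Dkkl1 of -0.022 ± 0.026 and Dkk4 of 0.032 ± 0.020.

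**Figure D3:**
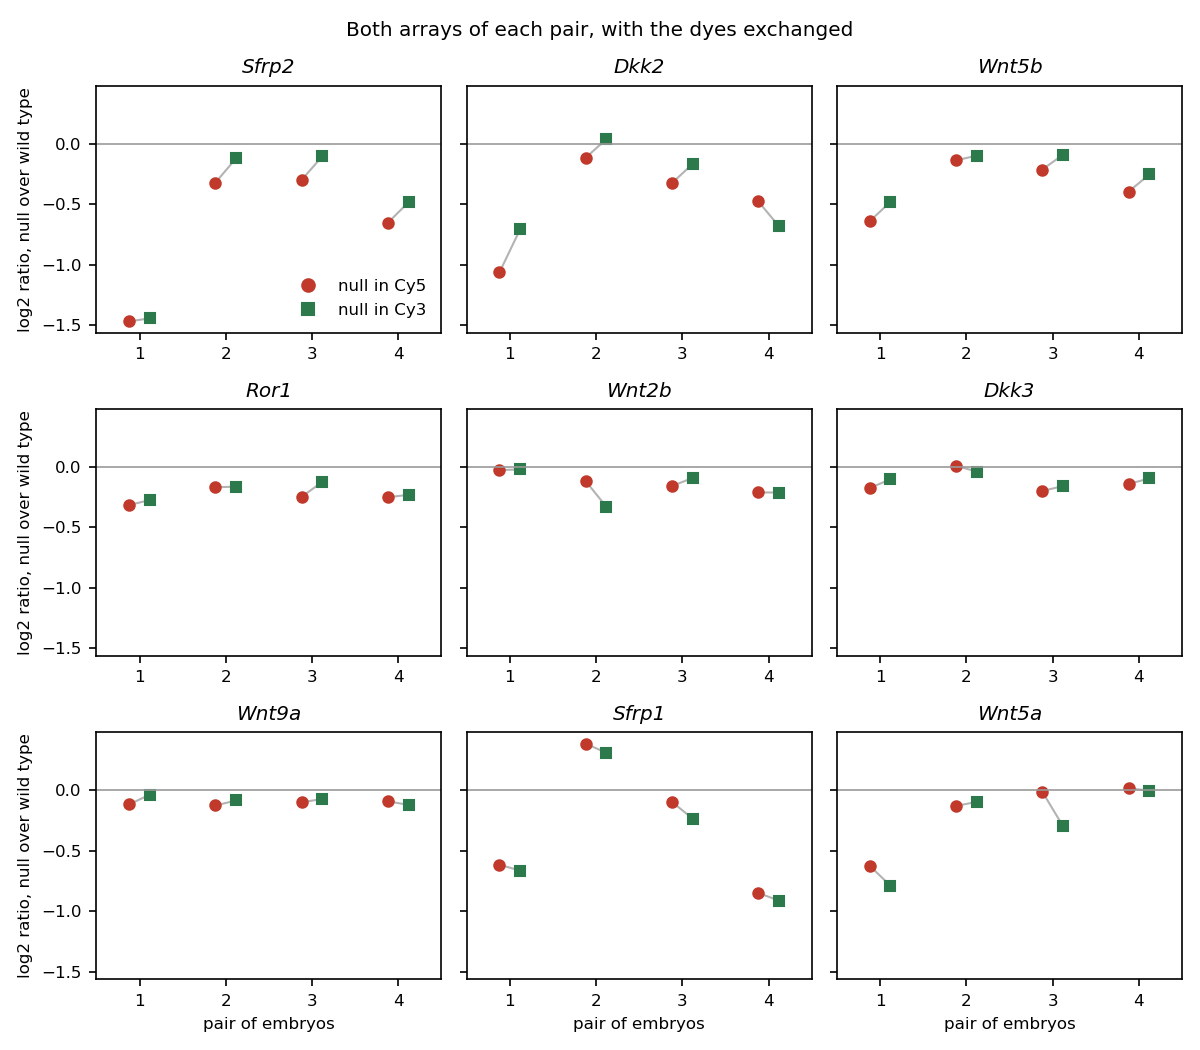
Log2 ratio of null over wild type (vertical axis) on both arrays of each pair (horizontal axis) for 9 genes, with circles for the null RNA in Cy5 and squares for Cy3. Ror1 lies below 0 on all 8 arrays, as do Sfrp2, Wnt5b, Wnt2b and Wnt9a, while Sfrp1 lies above 0 on both arrays of pair 2.

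Of the 19 Wnt ligands 13 had a mean below 0 and 6 above it, and 14 stayed within 0.2 of 0 in every pair. Wnt5b, a ligand of the branch without beta-catenin, stood at -0.56, -0.12, -0.15 and -0.33 in pairs 1 to 4, below 0 in every pair and lowest in pairs 1 and 4. Its mean was -0.29 ± 0.20 (SD, n = 4), which is 0.819 times wild type (95% interval -0.50 to -0.074; limma adjusted p = 0.727). Wnt5a, its close relative, which mouse gut mesenchyme makes and which the fetal intestine needs to elongate, stood at -0.71, -0.11, -0.15 and 0.0063 in pairs 1 to 4. Pair 1 was low and pair 4 at 0. Its mean was -0.24 ± 0.32 (SD, n = 4) with limma adjusted p = 0.815, and -0.087 without pair 1. The probes of Wnt5a gave -1.0, -0.16, -0.22 and -0.11 in pairs 1 to 4 and -0.42, -0.062, -0.085 and 0.12 in pairs 1 to 4, so pair 1 was lowest on each.

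Wnt2b, a mesenchymal ligand of the beta-catenin branch, stood at -0.023, -0.22, -0.12 and -0.21 in pairs 1 to 4. Its mean was -0.15 ± 0.093 (SD, n = 4) with limma adjusted p = 0.731. The probes did not agree. One read -0.17, -0.45, -0.13 and -0.43 in pairs 1 to 4, and the other 0.12, 0.0010, -0.12 and 0.013 in pairs 1 to 4, on either side of 0. Wnt9a stood at -0.077, -0.11, -0.086 and -0.11 in pairs 1 to 4, a small difference. Its mean was -0.094 ± 0.015 (SD, n = 4) with limma adjusted p = 0.727. One probe read -0.045, -0.19, -0.16 and -0.15 in pairs 1 to 4, with an SD of 0.062. The other read -0.11, -0.0235, -0.0155 and -0.0635 in pairs 1 to 4, with an SD of 0.043. The pairs were thus even only after the probes were averaged.

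Wnt4 and Wnt2 varied between pairs and arrays. Wnt4, a ligand of mesenchyme and of the developing kidney and gonad, stood at 0.010, -0.18, -0.094 and -0.46 in pairs 1 to 4. Its arrays read 0.21, -0.038, 0.24 and -0.36 in Cy5 and -0.19, -0.32, -0.43 and -0.57 in Cy3, with opposite signs within pairs 1 and 3. Wnt2, a mesenchymal ligand of the foregut and lung, stood at -0.056, -0.49, 0.27 and -0.23 in pairs 1 to 4, lowest in pair 2 and above 0 in pair 3. Wnt4 and Wnt2 had means of -0.18 ± 0.20 and -0.12 ± 0.32 (SD, n = 4). Wnt3, which Paneth cells make after birth, had the highest mean of the ligands, 0.070 ± 0.076 (SD, n = 4), with values of 0.058, 0, 0.18 and 0.044 in pairs 1 to 4. Beside it 5 measured Paneth cell markers, among them Lyz1 and Defa20, had a median of 1.56, 0.46, 0.91 and 0.48 in pairs 1 to 4, and their part in the Wnt3 ratio was not tested.

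The other 12 ligands had means between -0.064 for Wnt6 and 0.056 for Wnt9b. On the chromosomes several ligands lie next to each other in the RefSeq gene order. Wnt3 and Wnt9b, on chromosome 11, had means of 0.070 ± 0.076 and 0.056 ± 0.037. Wnt6 and Wnt10a, on chromosome 1, had -0.064 ± 0.059 and -0.045 ± 0.095, Wnt3a and Wnt9a, on chromosome 11, -0.030 ± 0.041 and -0.094 ± 0.015, and Wnt1 and Wnt10b, on chromosome 15, 0.018 ± 0.074 and -0.0083 ± 0.044.

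Among the Frizzled receptors 7 of 9 had a mean below 0, and 1, Fzd4, was below 0 in all 4 pairs. Fzd4, known from blood vessels of the retina, where it binds Norrin, stood at -0.054, -0.066, -0.070 and -0.054 in pairs 1 to 4. Its mean was -0.061 ± 0.0084 (SD, n = 4) with limma adjusted p = 0.802. Its arrays were less even than its pairs. They read -0.045, 0.023, -0.086 and -0.078 in Cy5 and -0.063, -0.155, -0.054 and -0.029 in Cy3, with opposite signs within pair 2. Fzd2, a receptor of mesenchyme that binds Wnt5a, stood at 0.051, -0.031, -0.28 and -0.38 in pairs 1 to 4, lower in pairs 3 and 4 only. Fzd1 stood at -0.34, -0.15, 0.12 and -0.21 in pairs 1 to 4, with pair 3 above 0. Fzd3, which works in planar cell polarity, stood at -0.19, 0.055, -0.11 and -0.13 in pairs 1 to 4. The means of Fzd2, Fzd1 and Fzd3 were -0.16 ± 0.20, -0.14 ± 0.19 and -0.093 ± 0.10.

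Fzd7 and Fzd8 differed most between pairs within the family. Fzd7, a receptor of Wnt in mouse intestinal stem cells, stood at -0.28, -0.15, 0.051 and 0.24 in pairs 1 to 4, below 0 in the first pairs and above 0 in the others, with a mean of -0.034 ± 0.23 (SD, n = 4). Fzd8 stood at -0.47, 0.040, -0.015 and 0.085 in pairs 1 to 4, low in pair 1 alone, with a mean of -0.091 ± 0.26 that turned to 0.037 without that pair. Fzd10 was highest in pair 4 on each of its probes and stood at -0.060, -0.0033, 0.073 and 0.30 in pairs 1 to 4. Fzd5, which mouse Paneth cells need to mature, had a mean of 0.037 ± 0.068 and probe means of -0.034, 0.035 and 0.11. Fzd6 had a mean of -0.072 ± 0.15. The Frizzled median was -0.19, -0.031, -0.015 and -0.0077 in pairs 1 to 4.

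Ror1, a tyrosine kinase-like receptor that binds Wnt5a, had the most even difference among the genes with a mean of 0.2 or more in size. It stood at -0.29, -0.17, -0.18 and -0.24 in pairs 1 to 4. All 4 pairs lay close together, and its 8 arrays read -0.31, -0.17, -0.25 and -0.25 in Cy5 and -0.27, -0.16, -0.12 and -0.23 in Cy3. Its mean was -0.22 ± 0.058 (SD, n = 4), which is 0.858 times wild type (95% interval -0.31 to -0.13; limma adjusted p = 0.656). With all 8 arrays in limma and the pair as a random block, Ror1 was the only one of the 47 past the threshold (adjusted p = 0.0381), and 59 genes in all (0.39%) were past it. That fit borrows its spread between embryos from a correlation estimated over all genes. The probes of Ror1 differed. One read -0.52, -0.28, -0.28 and -0.50 in pairs 1 to 4, a mean of -0.40, and the other -0.067, -0.046, -0.091 and 0.018 in pairs 1 to 4, a mean of -0.046.

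The other receptors of this role stood nearer 0. Ror2, the partner of Ror1 as a receptor for Wnt5a, stood at -0.082, 0.090, 0.20 and -0.064 in pairs 1 to 4, on either side of 0, with a mean of 0.036 ± 0.13 (SD, n = 4). Ryk, which binds Wnt through a Wif1-like domain, stood at -0.13, -0.10, -0.030 and 0.009 in pairs 1 to 4. Its mean was -0.064 ± 0.065, with probe means of -0.15 and 0.024. The co-receptors of the beta-catenin branch had means of 0.033 ± 0.0051 for Lrp5 and -0.043 ± 0.10 for Lrp6. Lrp6 stood at -0.19, -0.030, 0.0040 and 0.041 in pairs 1 to 4. Lrp5 stood at 0.041, 0.029, 0.031 and 0.032 in pairs 1 to 4, and its 95% interval was -0.040 to 0.11. Its single probes had SDs between pairs of 0.038 and 0.031, so the pairs were even only after averaging.

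Both genes of ligand processing had means near 0. Porcn stood at -0.31, -0.077, 0.14 and -0.037 in pairs 1 to 4, with a mean of -0.070 ± 0.18 (SD, n = 4). Wls stood at 0.037, 0.045, 0.040 and -0.091 in pairs 1 to 4, with a mean of 0.0078 ± 0.066, and its probes gave means of -0.089 and 0.10.

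The pairs differed from each other at 14 of the 47 genes (29.8%) by more than their dye-swapped arrays did, as was so for 30.9% of all genes (moderated F-test in limma at adjusted p under 0.05). The error in this test is technical, so variation between embryos is enough to pass. The lowest adjusted p were those of Sfrp1 (F-test adjusted p = 0.000144) and Sfrp2 (F-test adjusted p = 0.000215), then Fzd8 (F-test adjusted p = 0.00256) and Fzd7 (F-test adjusted p = 0.00538). Of the Frizzled genes 5 were among the 14, namely Fzd1, Fzd2, Fzd7, Fzd8 and Fzd10, against 3 of the 19 ligands, Wnt5a, Wnt5b and Wnt2. The rest were Dkk2, Frzb, Ror2 and Porcn. Ror1, Wnt2b, Wnt9a and Dkk3 were not among them, with adjusted p from 0.193 to 0.944. Without pair 1 the count was 2 of the 47 genes in place of 14, and 1121 of all genes in place of 4673.

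Pair 1 held the largest number of differences within a pair. Its null and wild-type embryos differed by more than array error at 17 of the 47 genes (36.2%, against 30.8% of all genes in limma), 16 lower and 1, Fzd5, higher. Among the 28 genes other than ligands 14 were lower in pair 1. Over all genes 16.2% were lower and 14.6% higher in that pair. Pair 2 gave 3 of 47 (6.38%, against 5.96% of all genes), 2 lower (3.76% of all genes) and 1 higher (2.2%). Pair 3 gave 7 (14.9%, against 11.8%), 5 lower (4.96% of all genes) and 2 higher (6.89%). Pair 4 gave 11 (23.4%, against 12.9%), 9 lower (6.65% of all genes) and 2 higher (6.2%). Sfrp1 and Sfrp2 were called in every pair, Sfrp2 lower each time and Sfrp1 higher in pair 2 and lower in the others. The share of all genes called in every pair was not counted, so it is unknown whether this is unusual. In pair 3 no gene of the 47 was called without the dye term, where pair 2 gave 1, and none was called in pair 3 when pair 2 was left out, so the calls of Sfrp1 and Sfrp2 in every pair depend on the fit. Ror1 was called lower in pairs 1, 3 and 4. These tests compare the 2 embryos of a pair and not the genotypes.

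The rest of the pathway was read from lists chosen with earlier results of these data known. No member of these lists passed the adjusted threshold. Of 14 genes of the destruction complex and its transducers 10 had a positive mean, with a median over the list of 0.029. The largest means with the same sign in all pairs were those of Axin2, a feedback inhibitor that Wnt induces, at 0.22, 0.16, 0.54 and 0.52 in pairs 1 to 4, and Amer1, which brings Apc to the membrane, at -0.055, -0.22, -0.21 and -0.13 in pairs 1 to 4. The 9 nuclear factors measured had a median of -0.055, with 0 of them on the same side of 0 in all 4 pairs. The 9 genes of planar polarity had a median of -0.031, 2 of them being the receptors Fzd3 and Fzd6. Daam1, a formin of that branch, was the only one on the same side of 0 in all 4 pairs. It stood at 0.028, 0.0375, 0.0145 and 0.12 in pairs 1 to 4, with a mean of 0.049 ± 0.045.

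Of 5 genes around LGR5 measured, 3 were below 0 in all 4 pairs, against 8.27% of all genes, and 1 above, against 7.3%. The 3 were Lgr5 itself, the gene made null, Rspo2, and Rspo1 with a mean of -0.070. Rspo2, an R-spondin made by mesenchyme and a ligand of LGR5, stood at -1.04, -0.18, -0.30 and -0.60 in pairs 1 to 4, with a mean of -0.53 ± 0.38 (SD, n = 4) and limma adjusted p = 0.727. Rnf43, a ubiquitin ligase that removes Frizzled receptors and that was chosen after its values were seen, stood at 0.49, 0.32, 0.37 and 0.40 in pairs 1 to 4, above 0 in each. Its mean was 0.40 ± 0.071 (SD, n = 4), with limma adjusted p = 0.656. Of 12 surface modulators 5 (41.7%) were below 0 in all 4 pairs and 0 above, against 8.27% and 7.3% of all genes. Sulf1, a sulfatase that edits the heparan sulfate chains that hold Wnt ligands, stood at -0.52, -0.19, -0.36 and -0.42 in pairs 1 to 4, with a mean of -0.37 ± 0.14 (SD, n = 4) and limma adjusted p = 0.656. Reck, a membrane protein that takes part in Wnt7 signalling in mouse brain vessels, stood at -0.45, -0.16, -0.26 and -0.12 in pairs 1 to 4. Among 19 Wnt targets 6 (31.6%) were above 0 in all 4 pairs, against 7.3% of all genes, and 1 (5.26%) below, against 8.27%. Ascl2, a stem cell transcription factor, stood at 0.24, 0.50, 0.51 and 0.70 in pairs 1 to 4 and Jag1, a Notch ligand, at -0.71, -0.29, -0.31 and -0.43 in pairs 1 to 4. The target list holds the antagonist Notum, and its means lay on both sides of 0, 9 above and 10 below.

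**Figure D4:**
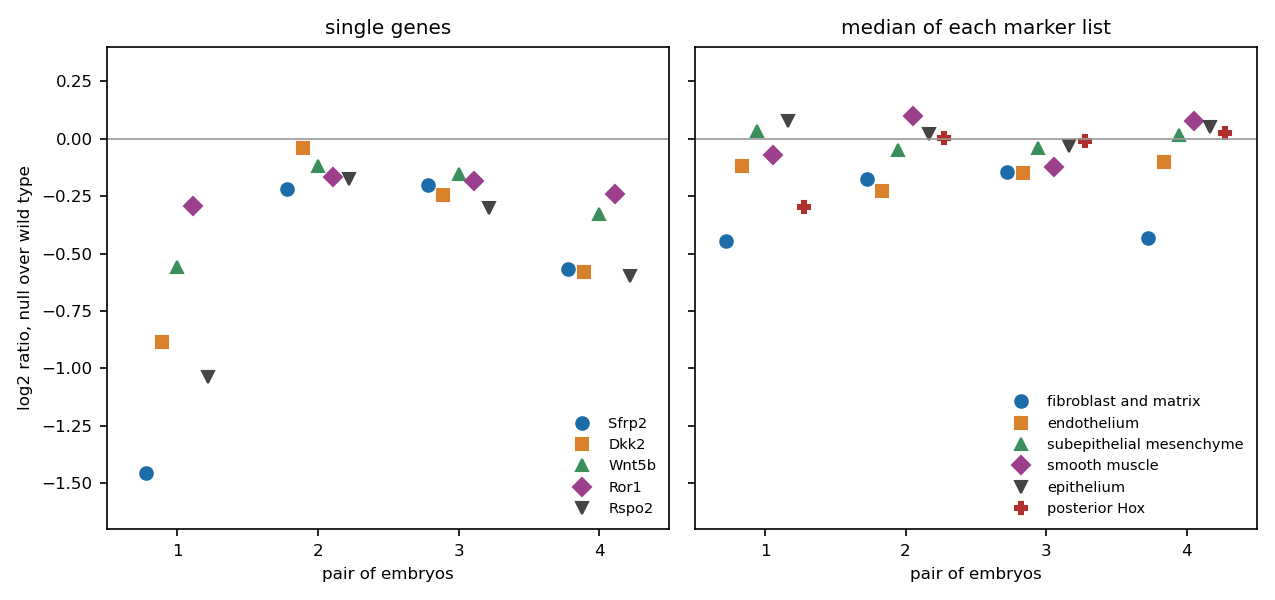
Log2 ratio of null over wild type (vertical axis) in pairs 1 to 4 (horizontal axis) for Sfrp2, Dkk2, Wnt5b, Ror1 and Rspo2 on the left and for the median of 6 marker lists on the right, with points set apart sideways within a pair. The single genes and the fibroblast median are lower in pairs 1 and 4 than in pairs 2 and 3, although for Ror1 the steps are small. Dkk3, Wnt2b and Wnt9a, which were lowest in other pairs, are not plotted.

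Markers of fibroblasts and matrix lay below 0 beside these genes. The list holds genes known from earlier results of these data, so its low values were partly known beforehand and are no independent support. All 10 measured had a negative mean, against 50% of all genes, and 7 were below 0 in every pair, against 8.27%. The list's median was -0.45, -0.18, -0.14 and -0.43 in pairs 1 to 4. Of the 7 lower genes 4, Sfrp2, Dkk2, Wnt5b and Ror1, had their lowest values in the same pairs, 1 and 4, as did Rspo2. The other 3 did not, Dkk3 being lowest in pairs 1 and 3, and Wnt2b and Wnt9a in pairs 2 and 4. The share of all genes with their lowest values in pairs 1 and 4 was not counted. No shared pattern can therefore be read from these genes. Endothelial markers had medians of -0.12, -0.23, -0.15 and -0.10 in pairs 1 to 4, with all 8 means below 0. In all 4 pairs 5 of these endothelial markers (62.5%, against 8.27% of all genes) were below 0. The 8 markers of subepithelial mesenchyme had medians of 0.035, -0.047, -0.041 and 0.017 in pairs 1 to 4. They were mixed, with 4 means above 0 and 4 below. Of the 8, 3 (37.5%, against 8.27% of all genes) were below 0 in all 4 pairs, namely Gli1, Foxf2 and Pdgfra. Gli1 stood at -0.21, -0.003, -0.073 and -0.38 in pairs 1 to 4, and Pdgfra is also on the fibroblast list. Smooth muscle markers had -0.073, 0.099, -0.12 and 0.080 in pairs 1 to 4, and epithelial markers 0.077, 0.022, -0.033 and 0.050 in pairs 1 to 4. Mesothelial markers had medians of 0.030, -0.031, 0.048 and -0.19 in pairs 1 to 4 and markers of enteric neurons and glia -0.54, -0.022, -0.028 and 0.087 in pairs 1 to 4. The part of these cell types in the ratios of the Wnt genes was not tested. In whole ileum fewer cells of a type and less RNA per cell cannot be told apart, and ratios give no summed level of a marker list in either group.

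The median of the posterior Hox genes was low in pair 1, where 16 of the 47 genes were called lower, Wnt5a and Fzd8 among them. The list of 13 measured Hox genes had medians of -0.30, 0.0040, -0.0075 and 0.027 in pairs 1 to 4. Within pair 1, 7 of the 13 were called lower and 1, Hoxc9 at 0.75, higher. Wnt5a and Fzd8 stood at -0.71 and -0.47 in that pair, and between -0.15 and 0.085 in the others. Sfrp2 and Dkk2 stood lower than both in pair 1, at -1.46 and -0.88. Pair 3, where pancreas, liver and erythroid genes were highest, held the lowest value of Dkk1 and the highest of Wif1, Wnt3, Wnt2 and Ror2. In pair 4, where the medians of those lists were above 0 as well, Dkk1 had its highest value (0.074) and Wif1 its lowest (-0.041), and Wnt2 stood at -0.23. The genes named for pair 3 are a selection, and others, such as Porcn (0.14) and Fzd1 (0.12), were highest there too. The share of genes that are highest or lowest in a given pair was not counted. The part of these Hox, pancreas, liver and erythroid differences in the Wnt genes was not tested.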

How the data were processed

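RNA of ileum was amplified to aminoallyl antisense RNA, labelled with Cy5 and Cy3 and hybridised as null and wild-type pairs, per the labels' protocols. The authors deposited a log ratio per probe and array, read here as log2, with the base of the logarithm, the background correction and the normalization not given in the sources used here. Array medians lay within 0.002 of 0, so values were used as deposited. Spot intensities were not used here, so no filter on dim probes was possible, and the number of arrays limits the precision. The table holds 38467 probes with 0 missing values. The platform annotation names 22941 of them, all matched by gene identifier to RefSeq (GRCm38.p6) with 0 symbols changed.

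Probes were averaged per gene and the 2 dye-swapped arrays per pair, so the pair was the replicate. All 15123 genes were fitted in limma 3.58.1 (R 4.3.3; lmFit and eBayes on an intercept, 2-sided), adjusted by Benjamini-Hochberg over all of them with a threshold of 0.05. Pair differences, single pairs and the dye term came from 1 fit of 8 arrays with a coefficient per pair and a dye term. The 4 pairs came from 3 couples and may not be wholly independent. The tests were checked only on simulated data with independent normal noise. That noise held no shared parents, dye effects or tissue differences, so the check cannot show how the tests behave on these data. The genes and lists were chosen with earlier results of these data known. Values of every pair are given for genes with the same sign in all pairs and unadjusted p under 0.05, the 3 largest means of each role, the 8 largest ranges and, per pathway list, the 2 largest even means. Any other gene with values was chosen after its values were seen. Alternatives changed the unit, block, scale, centring, dyes, probe summary, moderation and pairs included. Promoters came from RefSeq by symbol.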

Additional observations from a re-analysis of the deposited data

Results flagged for a closer look

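In 53 items examined, the 47 genes, the 5 role medians and the median of all, a pair was singled out when its gap to the nearest other pair took up most of the range of the 4. Chance does this for about 1 in 20 items, and 2 were found. Wls had -0.0905 in pair 4, where the other pairs ran from 0.037 to 0.045, and its probes had means of opposite sign. The median of the Frizzled receptors stood at -0.19 in pair 1, against -0.031 to -0.0077 in the others.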

How the results depend on the processing

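The test of null against wild type was paired, because each array holds the null and the wild-type sample of a pair. The pair means are the values tested, so no further pairing was added. Of 450 recomputed means of 30 named genes 430 kept their direction. Many of them could not change, so this count overstates how stable the means are. The random block and the robust moderation leave every mean as it is, and the probe summaries leave that of a gene with 1 probe. The test of null against wild type gave 0 genes under each alternative except the random block, which gave 59, 12 higher and 47 lower, with Ror1 as the 1 member, beside Lgr5, Ascl2 and Sulf1 among the named genes. The 7 lower genes at unadjusted p under 0.05 became 3 with 1 probe per gene, where Ror1 and Wnt2b are read from their other probe, and 2 to 7 when a pair was left out (2 without pair 4). The 8 genes below 0 in all pairs became 14 on the Cy3 arrays, against 9.36% of all genes, 13 of 65 probes with each probe on its own, against 7.44% of all probes, and 12 to 14 genes of 3 pairs when a pair was left out, against 12.9% to 16.1% of all genes, and 20 without pairs 1 and 3, against 26.2%; leaving those out was chosen after seeing the data. Means changed sign for 9 of the 30 genes, among them Dkk1, Wnt4 and Wnt2b. Leaving out a pair gave -0.12 to 0.046 for Fzd7, -0.15 to 0.037 for Fzd8, -0.072 to 0.005 for Lrp6 and -0.14 to 0.009 for Porcn, highest in each case without pair 1. It gave -0.0046 to 0.041 for Wls, above 0 without pair 4 alone. Fzd7 was also above 0 without pair 2, at 0.0048. Without pairs 1 and 3 they were 0.037 for Dkk1, 0.044 for Fzd7, 0.062 for Fzd8, 0.0055 for Lrp6 and -0.023 for Wls. Fzd7 gave 0.036 on the Cy3 arrays, and Wnt4 0.011 and Wls -0.0085 on the Cy5 arrays. With 1 probe per gene Ryk gave 0.024, Wnt2b 0.0051 and Wls -0.089, which is also its value with each probe on its own. Leaving out a pair gave 1121 to 4924 genes different between pairs, against 4673, and 2 to 13 of the 47, the lowest in both without pair 1. Without the dye term there were 3106 genes, and with each probe on its own 8384 of 36591 probes. Members called within pair 2 numbered 1 without the dye term, 7 with scaled arrays and 1 to 4 with a pair left out, against 3. Those within pair 3 numbered 0 without the dye term, 3 with scaled arrays, 3 with each probe on its own and 0 to 4 with a pair left out, against 7. Left-out ranges were 13 to 17 for pair 1 and 9 to 12 for pair 4. The cause of these moves was not tested. Without intensities it is unknown which genes lie near background.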
